A study of Mus musculus with 45 samples.

Results

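The immune checkpoint genes followed here are 10 genes: Cd274, Pdcd1lg2, Pdcd1, Ctla4, Lag3, Havcr2, Tigit, Icos, Cd80 and Cd86. They are 10 of 18820 genes that had a probe set carrying a single gene symbol, and each gene is represented by its single-symbol probe set with the highest mean. Expression was read on 45 mouse mammary tumours, each hybridised to a single-colour Affymetrix array of its own. Every tumour grew from non-irradiated BALB/c mammary fragments lacking the tumour suppressor gene Trp53, placed in the inguinal fat pad of a wild-type BALB/c female 10 weeks old whose own epithelium had been taken out at 3 weeks. The hosts received silicon (Si) ions, which are densely ionising charged particles, or a sham exposure 3 days before transplantation. Sham hosts gave 18 tumours. Si hosts gave 27: 9 after 10 cGy, 10 after 30 cGy and 8 after 80 cGy. All groups therefore share the Trp53-null transplant, the wild-type host and the cleared fat pad, and they differ in the exposure of the host. Transplants were followed for 600 days and tumours were taken at 1 cm3, so host age at collection can differ between tumours.

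T cells are activated when an antigen signal is joined by a second signal. Cd80 and Cd86 on antigen-presenting cells give that signal through Cd28, while Ctla4 competes for the same ligands and restrains the response. Pdcd1 (PD-1) is a restraining receptor engaged by Cd274 (PD-L1) and Pdcd1lg2 (PD-L2). Lag3, Havcr2 (TIM-3) and Tigit are further restraining receptors of T cells and NK cells, and Havcr2 is also known on macrophages and dendritic cells. Icos is a costimulatory receptor that appears on activated T cells. Ctla4 and Icos are neighbours in the RefSeq gene table with no protein-coding gene between them, and so are Cd274 and Pdcd1lg2.

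RefSeq promoter sequences (build GRCm38.p6) were matched for 7 of the 10 genes, and Lag3, Icos and Cd86 are named only. The 250 bases upstream of the start in the promoter source are shown for Havcr2 and Tigit, which varied together most closely among the matched genes, and for Cd80. The Tigit, Cd80 and Cd274 windows lie inside the RefSeq span of their genes, so the start used is not the outermost one. Capitals mark matches, on either strand, to 6 motifs: AP-1 (TGANTCA), RUNX (TGTGGT), PU.1 (GAGGAAGT), the gamma-activated site (TTCNNNGAA), NF-kappa-B and the interferon-stimulated response element.

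Havcr2: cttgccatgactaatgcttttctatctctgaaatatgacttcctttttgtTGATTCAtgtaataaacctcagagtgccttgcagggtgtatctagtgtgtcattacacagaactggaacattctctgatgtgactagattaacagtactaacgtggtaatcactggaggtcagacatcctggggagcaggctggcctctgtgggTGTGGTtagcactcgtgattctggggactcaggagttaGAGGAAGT

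Tigit: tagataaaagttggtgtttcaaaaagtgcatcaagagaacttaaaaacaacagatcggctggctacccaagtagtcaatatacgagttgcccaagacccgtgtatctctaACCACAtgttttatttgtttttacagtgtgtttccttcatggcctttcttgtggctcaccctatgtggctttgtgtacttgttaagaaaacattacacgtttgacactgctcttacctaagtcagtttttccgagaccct

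Cd80: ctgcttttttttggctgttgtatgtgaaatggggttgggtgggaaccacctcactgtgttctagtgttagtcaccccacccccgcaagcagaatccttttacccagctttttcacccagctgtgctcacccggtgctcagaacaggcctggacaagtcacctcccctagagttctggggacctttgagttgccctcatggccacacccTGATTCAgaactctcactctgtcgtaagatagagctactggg

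The Havcr2 window lies at chr11:46454681-46454930 on the plus strand, the Tigit window at chr16:43664185-43664434 on the minus strand and the Cd80 window at chr16:38458683-38458932 on the plus strand. Havcr2 held an AP-1 match from -200 to -194, a RUNX match from -46 to -41 and a PU.1 match from -8 to -1 relative to the start. Tigit held a RUNX match on the opposite strand from -140 to -135, and Cd80 an AP-1 match from -42 to -36. The windows of Cd274, Pdcd1lg2, Pdcd1 and Ctla4 held none of the 6 motifs. Among 32851 promoters of the same length, 6.75% held the AP-1 letters, 14.0% the RUNX letters, 2.44% the PU.1 letters, 7.02% the gamma-activated site, 2.98% the interferon-stimulated element and 1.41% the NF-kappa-B letters. A match describes the letters only.

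Values are log2 expression, so a difference of 1 is a doubling, and a level is compared only with the same gene in other tumours. A gene entered the tests where it exceeded the table median of 5.67 in at least 8 tumours, and 12123 genes did. Of the 10 checkpoint genes, 7 passed. Pdcd1lg2 and Ctla4 exceeded the median in 0 of 45 tumours and Pdcd1 in 7, so these 3 were tested in a second fit over all 18820 genes. Among defining markers of the tissue, Krt8 (a luminal keratin) and Cd68 (a macrophage lysosomal protein) exceeded the median in 45 tumours, Epcam in 44, the T cell receptor subunit Cd3e in 43, Cd4 in 26, Cd8a in 15, the killing protein Prf1 in 4, the follicular marker Cr2 in 3 and the cytokine Ifng in 2. In whole-tumour RNA, fewer cells of a type and less RNA per cell cannot be told apart.

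No checkpoint gene passed the test between tumours of Si and sham hosts. In limma, 0 of the 10 genes passed an adjusted p of 0.05 for the mean of the 3 doses against sham, where 0% of the 12123 genes passed and 5.82% had an unadjusted p under 0.05. None passed at 10 cGy, 30 cGy or 80 cGy, where 0% of genes passed in each case and 3.65%, 4.45% and 6.97% had an unadjusted p under 0.05. None passed the test over the 4 groups, the slope on dose or the test among the 3 doses, where again 0% of genes passed and the unadjusted shares were 4.13%, 7.43% and 3.98%. In the fit over all 18820 genes, which holds Pdcd1lg2, Pdcd1 and Ctla4, 0% passed in these 7 comparisons. The unadjusted shares there were 5.15% for Si, 3.57%, 4.54% and 6.06% for 10, 30 and 80 cGy, 4.01% for the 4 groups, 6.38% for the slope and 3.9% among doses. Each gene overlapped between every pair of groups: 0 of 60 comparisons of a gene between 2 groups were free of overlap. With the 4 group means of a gene placed in order, 0 of 30 neighbouring means differed by more than their pooled SD. Neither count was made over all genes, so neither can be read as particular to the checkpoint genes. A p that misses the threshold does not show that the levels are alike, and the intervals below give the differences that remain possible.

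**Figure D1:**
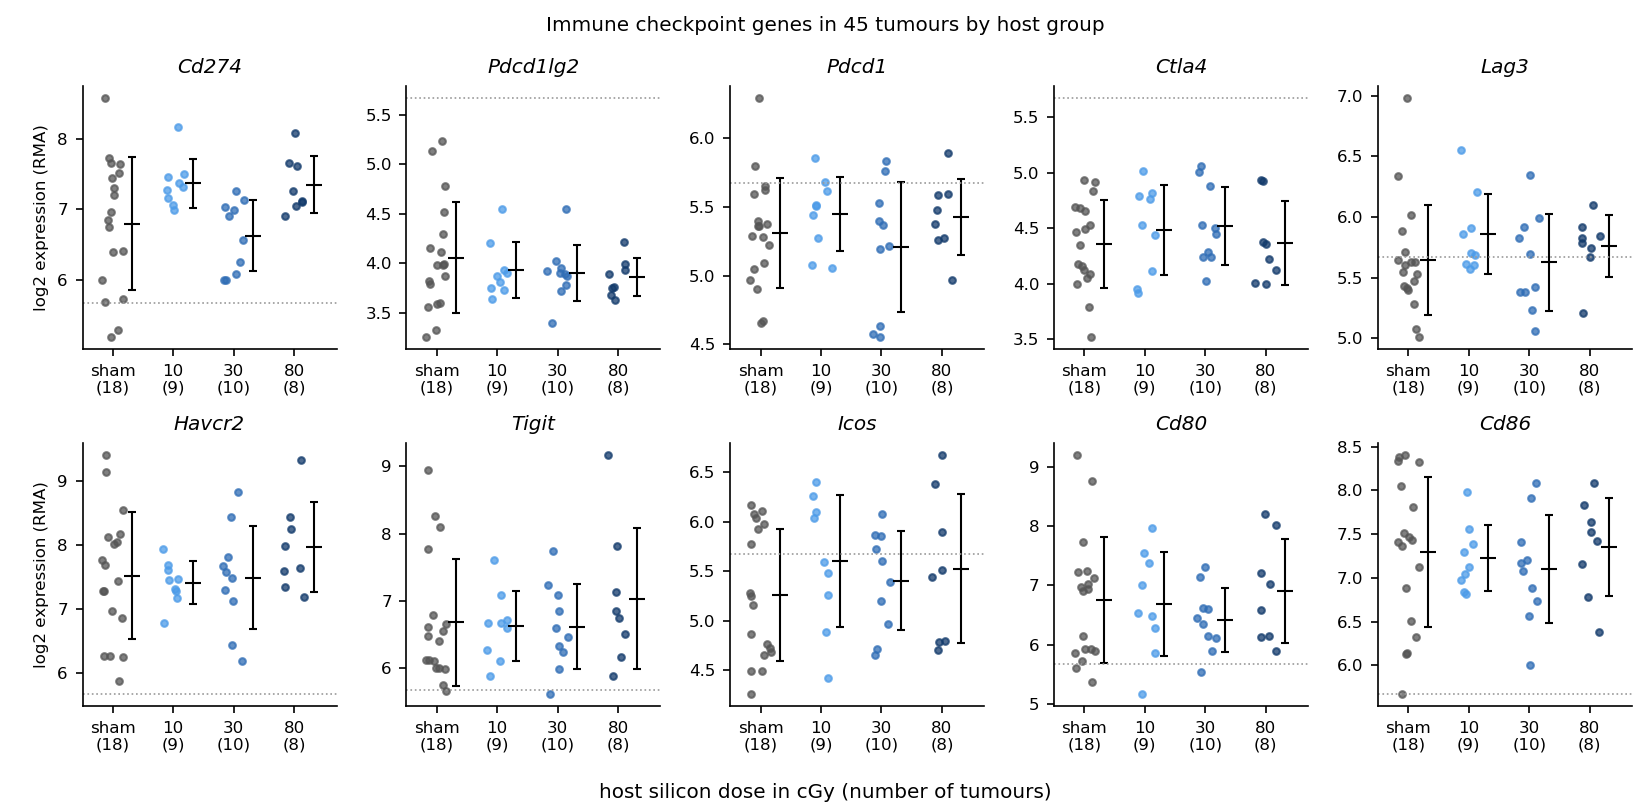
Log2 expression (vertical axis) of each checkpoint gene by host group (horizontal axis, silicon dose in cGy with the number of tumours). Points are tumours, bars are the mean with 1 SD, and the dotted line is the table median of 5.67. The groups overlap for every gene, and the 18 sham tumours spread widely for Cd274, Havcr2 and Cd80.

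Cd274, a ligand of Pdcd1, had the lowest unadjusted p of the 10 genes for Si, 10 cGy, 80 cGy, the 4 groups and the test among doses, but not at 30 cGy or for the dose slope. In sham tumours it had a lowest value of 5.19, a median of 6.90 and a highest of 8.58. At 10 cGy the corresponding values were 6.99, 7.31 and 8.16. At 30 cGy they were 6.00, 6.74 and 7.27, and at 80 cGy 6.90, 7.19 and 8.09. The tumours at 10 and 80 cGy thus lay in the upper part of the sham range, and those at 30 cGy did not: 9 of 9, 7 of 8 and 4 of 10 tumours, respectively, exceeded the sham median. The means were 6.80 ± 0.94 (SD, n = 18) in sham tumours, 7.37 ± 0.35 (SD, n = 9) at 10 cGy, 6.62 ± 0.50 (SD, n = 10) at 30 cGy and 7.35 ± 0.40 (SD, n = 8) at 80 cGy.

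The Cd274 difference from sham was 0.57 ± 0.28 (SE) at 10 cGy, with a 95% confidence interval of 0.02 to 1.13, a limma p of 0.044 and an adjusted p of 0.991. At 80 cGy it was 0.55 ± 0.29 (SE), with an interval of -0.02 to 1.13 and an adjusted p of 0.732. At 30 cGy it was -0.17 ± 0.27 (SE), with an interval of -0.71 to 0.36 and an adjusted p of 0.990. For the 3 doses together the difference was 0.32 ± 0.21 (SE), with an interval of -0.10 to 0.73 and an adjusted p of 0.906. A permutation test of the same difference in means gave p = 0.158. The limma test among the 3 doses gave p = 0.031 for Cd274 and an adjusted p of 0.999. The mean did not follow the order of dose, since it was lowest at 30 cGy. Beside the 10 cGy values, 9 of 10 measured genes of the B cell and lymph node list were higher than in sham tumours. Their median difference was 0.44, and 3 had an unadjusted p under 0.05 in limma. Of all 18820 genes, 45.8% were higher at 10 cGy. Only 3 of the 10 measured genes of the B cell and lymph node list passed the filter, so most of it lay at low values. That list's score ran from -0.47 to 1.23 at 10 cGy and from -0.68 to 0.82 in sham tumours. Of the T cell list 12 of 13 genes were higher, with a median of 0.07, and of the muscle and fat list 5 of 5 were lower, with a median of -1.52. Of the macrophage list 10 of 11 were lower, with a median of -0.29. The part of these lists in the Cd274 values was not tested.

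Pdcd1lg2, the other ligand of Pdcd1, was low throughout, from 3.26 to 5.24 over the 45 tumours. Its Si difference was -0.16 ± 0.12 (SE), with an interval of -0.41 to 0.09 and an adjusted p of 0.971. It was the single gene of the 10 with a lower mean than sham at every dose. Only 2 of 9, 2 of 10 and 2 of 8 tumours at 10, 30 and 80 cGy exceeded the sham median. Pdcd1, the receptor, ran from 4.55 to 6.29, with a Si difference of 0.05 ± 0.11 (SE) and an interval of -0.18 to 0.28.

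Among the receptors of activated T cells, Icos had a Si difference of 0.25 ± 0.19 (SE), with an interval of -0.14 to 0.64 and an adjusted p of 0.918. Its values were 4.26 to 6.16 with a median of 5.20 in sham tumours, 4.42 to 6.40 with 5.59 at 10 cGy, 4.66 to 6.08 with 5.50 at 30 cGy and 4.71 to 6.67 with 5.47 at 80 cGy. The Icos mean exceeded the sham mean at each dose, with overlapping ranges. Ctla4 ran from 3.52 to 5.06, and its Si difference was 0.10 ± 0.12 (SE) with an interval of -0.13 to 0.33. Lag3 ran from 5.01 to 6.98, and its Si difference was 0.10 ± 0.12 (SE) with an interval of -0.14 to 0.34.

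Havcr2 and Tigit had larger means at 80 cGy than at the other doses, as did Cd80 and Cd86. Havcr2 in sham tumours had a lowest value of 5.88, a median of 7.57 and a highest of 9.41. At 80 cGy these values were 7.19, 7.82 and 9.33, within the sham range. The difference at 80 cGy was 0.45 ± 0.34 (SE), with an interval of -0.23 to 1.13 and an adjusted p of 0.836. Tigit in sham tumours ran from 5.66 to 8.94 with a median of 6.44, and at 80 cGy from 5.88 to 9.17 with a median of 6.79. Its difference at 80 cGy was 0.35 ± 0.35 (SE), with an interval of -0.35 to 1.05 and an adjusted p of 0.894. Of the macrophage list, 8 of 11 genes were higher at 80 cGy than in sham tumours, with a median of 0.16. Its score ran from -0.49 to 0.98 against -1.87 to 1.61. Of all 18820 genes, 51.2% were higher at 80 cGy. The part of macrophage content in the Havcr2 and Tigit values was not tested. For the 3 doses together, Havcr2 differed by 0.10 ± 0.24 (SE) and Tigit by 0.07 ± 0.25 (SE). Without replicate 3 of the 80 cGy group, which held the highest Tigit value of all 45 tumours, the Si difference of Tigit was -0.03. The 80 cGy difference of Havcr2 was 0.25 without that tumour.

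For Cd80 and Cd86, the costimulatory ligands, the mean differences were small beside their errors. Cd80 differed by -0.09 ± 0.27 (SE), with an interval of -0.63 to 0.45. Cd86 differed by -0.07 ± 0.20 (SE), with an interval of -0.48 to 0.35. At 30 cGy, Cd80 had its largest departure, -0.34 ± 0.35 (SE), with an adjusted p of 0.990. Cd80 was also read by a second probe set, which followed the first with r = 0.92 over the tumours.

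**Figure D2:**
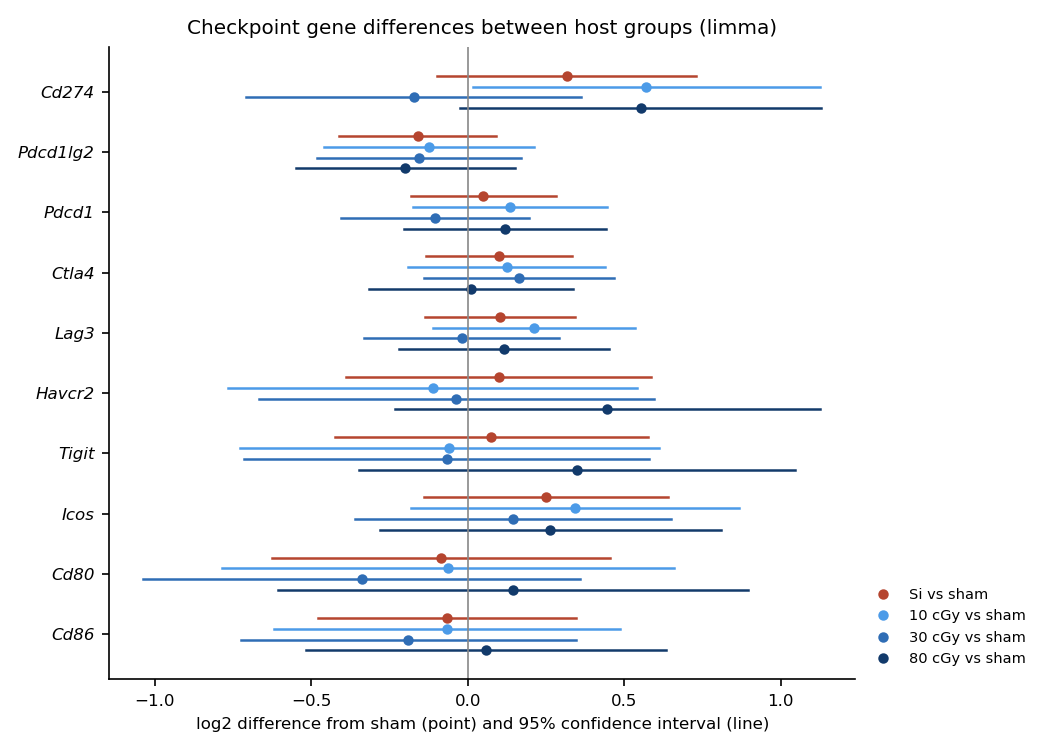
Log2 difference from sham tumours (horizontal axis) for each checkpoint gene (vertical axis), from limma, with 95% confidence intervals as lines. Red marks the mean of the 3 doses and blue shades mark 10, 30 and 80 cGy. The Cd274 interval at 10 cGy, 0.02 to 1.13, is the one that leaves out 0.

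Counted over the 10 genes, 7 were higher and 3 lower in Si than in sham tumours, with a median difference of 0.09 against 0.00 over all genes tested. At 10 cGy 5 were higher and 5 lower, at 30 cGy 2 were higher and 8 lower, and at 80 cGy 9 were higher and 1 lower. The median differences were 0.03, -0.09 and 0.13, against -0.01, 0.01 and 0.00 over all genes tested. The 3 dose comparisons share their sham tumours. One gene of the 10, Cd274 at 10 cGy, had an unadjusted limma p under 0.05 in these comparisons. Of all 18820 genes, 5.15% had such a p for Si, and 3.57%, 4.54% and 6.06% at 10, 30 and 80 cGy. The count is therefore not read as a result about the checkpoint genes.

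The rest of the pathway was read from a list of 32 further co-signalling genes. All 32 were measured, 21 passed the filter, and 0 passed the adjusted threshold in any of these comparisons with or without the filter. Against sham, 20 were higher and 12 lower in Si tumours. The smallest p values on the higher side belonged to Cd276 (B7-H3), at 0.29 ± 0.19 (SE), and to Cd200, a restraining ligand, at 0.46 ± 0.30 (SE). On the lower side were Tnfrsf18 (GITR), at -0.30 ± 0.17 (SE), and Tnfsf9 (4-1BB ligand), at -0.25 ± 0.19 (SE). Their adjusted p values lay between 0.889 and 0.918. At single doses, the rule for naming genes added Vtcn1 (B7-H4), at 0.99 ± 0.63 (SE), and Sirpa, the Cd47 receptor, at -0.25 ± 0.24 (SE), both at 10 cGy. It added Fgl1, a ligand of Lag3, at 0.12 ± 0.09 (SE) and Cd244a at -0.25 ± 0.18 (SE) at 30 cGy, and Cd70 at -0.29 ± 0.18 (SE) at 80 cGy.

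The spread of each gene was read as its range and SD over the 45 tumours. Cd80 spanned 4.03 log2 units over the 45 tumours, or 16.3-fold. Tigit spanned 11.7-fold, Havcr2 11.6-fold, Cd274 10.5-fold and Cd86 6.64-fold. By SD, Cd80 exceeded 85.3% of the genes that passed the filter, Tigit 82.5%, Havcr2 82.0%, Cd274 78.0%, Cd86 73.8% and Icos 72.1%. Lag3 exceeded 41.2%.

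The same tumours tended to be extreme for several genes. Replicate 5 of the sham group was among the 5 highest tumours for 7 genes: Pdcd1, Ctla4, Lag3, Havcr2, Tigit, Icos and Cd86. Replicate 17 of the sham group was among the 5 lowest for 8 genes, all except Ctla4 and Lag3. Replicate 11 of the sham group was among the 5 lowest for 7 genes, all except Pdcd1, Lag3 and Tigit.

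Across the 45 tumours, 25 of the 45 pairs of checkpoint genes were correlated, all positively (Pearson's r, permutation test with 100000 resamples, Benjamini-Hochberg adjusted over the 45 pairs). Of these, 23 also passed by Spearman's rho. Havcr2 and Cd86 had the highest value, r = 0.79 and rho = 0.77, both with p = 1e-05, the smallest p these permutations can give. Havcr2 and Tigit followed with r = 0.75 and rho = 0.64, and Tigit and Cd86 with r = 0.67 and rho = 0.64, at the same smallest p. Their adjusted p values were 0.00015 for r. After leaving out the 2 tumours farthest from the median of the first gene, r was 0.76, 0.67 and 0.65. With the mean of each sample-code set subtracted, r was 0.77, 0.72 and 0.66. For scale, 14 of the 45 pairs (31.1%) had r of at least 0.5. Of the genes that passed the filter, 6.43% had such an r with Havcr2, 8.03% with Tigit, 7.74% with Cd86, 7.05% with Cd80 and 3.18% with Icos. The shares were 1.54% for Pdcd1lg2, 1.26% for Lag3, 1.06% for Cd274, 0.891% for Ctla4 and 0.536% for Pdcd1.

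Pdcd1 joined these genes, with r = 0.62 to Cd86 and 0.60 to Havcr2. Icos was correlated with 8 of the 9 other genes, all except Lag3. Among the ligands, Cd80 had r = 0.57 with Pdcd1lg2, 0.53 with Cd274 and 0.51 with Cd86, and Cd274 had r = 0.50 with Pdcd1lg2. Cd86 was not called with Cd274 (r = 0.29) or Pdcd1lg2 (r = 0.28). Cd80 was as close to the receptor Icos (r = 0.53) as to these ligands. Pdcd1 and Pdcd1lg2, a receptor and its ligand, had r = -0.01, and Pdcd1 and Cd274 had r = 0.12. Ctla4 and its neighbour Icos had r = 0.51, which was 0.37 and no longer called (adjusted p = 0.0501, permutation test) without the 8 tumours of low epithelial score. Lag3 was correlated with 0 of the 9 others, with values from -0.12 to 0.32.

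**Figure D3:**
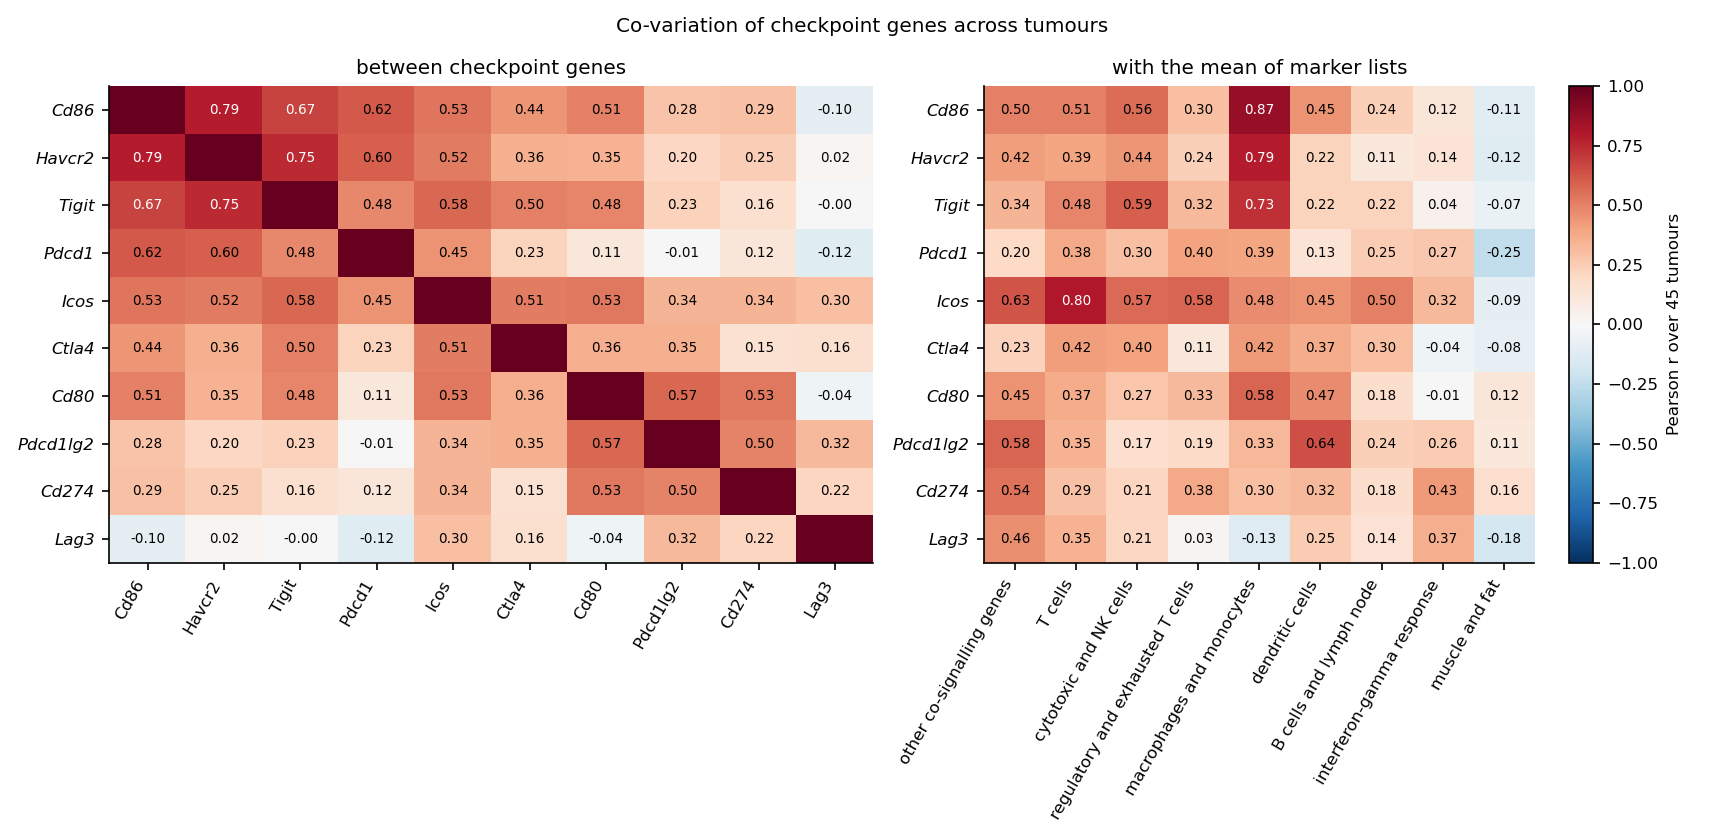
Pearson r over 45 tumours between checkpoint genes (left) and between each gene and the mean centred log2 value of marker lists (right), from -1 (blue) to 1 (red). Cd86, Havcr2, Tigit and Pdcd1 form the red corner at upper left, and the Lag3 row is pale.

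Each gene was then set against the mean centred value of 10 marker lists (a list score), with p adjusted over 100 gene and list pairs. Cd86 followed the macrophage and monocyte list most closely, with r = 0.87 and rho = 0.80. Havcr2 had r = 0.79 and rho = 0.70 with that list, and Tigit r = 0.73 and rho = 0.68. Each had a permutation p of 1e-05 and an adjusted p of 0.000167 for r. Without the 2 tumours farthest from the median of the checkpoint gene itself (its 2 most extreme tumours), r was 0.84, 0.76 and 0.71. Of the genes that passed the filter, 10.3% had r of at least 0.5 with the macrophage list.

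Icos followed the T cell list instead, with r = 0.80 and rho = 0.82, at a permutation p of 1e-05 and an adjusted p of 0.000167 for r. Without the 2 most extreme tumours r was 0.80. Of the genes that passed the filter, 3.58% had r of at least 0.5 with the T cell list. Tigit, a receptor of T cells and NK cells, had r = 0.48 with the T cell list, 0.59 with the cytotoxic and NK cell list and 0.73 with the macrophage list, and the difference between these values was not tested. Of the T cell list, 13 of 15 genes were measured, and its defining receptor subunit Cd3e exceeded the table median in 43 tumours.

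Pdcd1lg2 followed the dendritic cell list (r = 0.64, rho = 0.59), with r = 0.52 without the 2 most extreme tumours. With that list, 4.21% of genes that passed the filter had r of at least 0.5. Only 6 of the 11 genes of the dendritic cell list passed the filter, and its members Xcr1 and Batf3 exceeded the table median in 0 tumours. Pdcd1lg2 also exceeded it in 0 tumours, so this correlation rests in part on low values. Cd80 followed the macrophage list (r = 0.58, rho = 0.67). Cd274 had r = 0.54 with the list of other co-signalling genes and 0.43 with the interferon-gamma response list, with rho of 0.46 and 0.39. For its highest list, r was 0.38 without the 2 most extreme tumours. Lag3 had r = 0.46 with the other co-signalling genes, which was 0.20 without the 2 most extreme tumours, so that value rests on them. Lag3 had r = 0.37 and rho = 0.42 with the interferon-gamma response list and -0.13 with the macrophage list. The highest list value of Pdcd1 was r = 0.40 with the list of regulatory and exhausted T cells, followed by 0.39 with the macrophage list. Of the regulatory and exhausted T cell list, 9 of 10 genes were measured and 6 passed the filter. Its defining marker Foxp3 was not among those measured, so the value cannot be read as a link to regulatory T cells. For Ctla4 the highest list value was 0.42 with the macrophage list, followed by 0.42 with the T cell list.

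Leaving the mammary epithelium list aside, 40 of 90 gene and list pairs passed, all positive. With the mean of each host group subtracted, 42 of 90 passed. In the 18 sham tumours alone, 18 of the 45 pairs of genes and 16 of the 90 gene and list pairs passed.

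**Figure D4:**
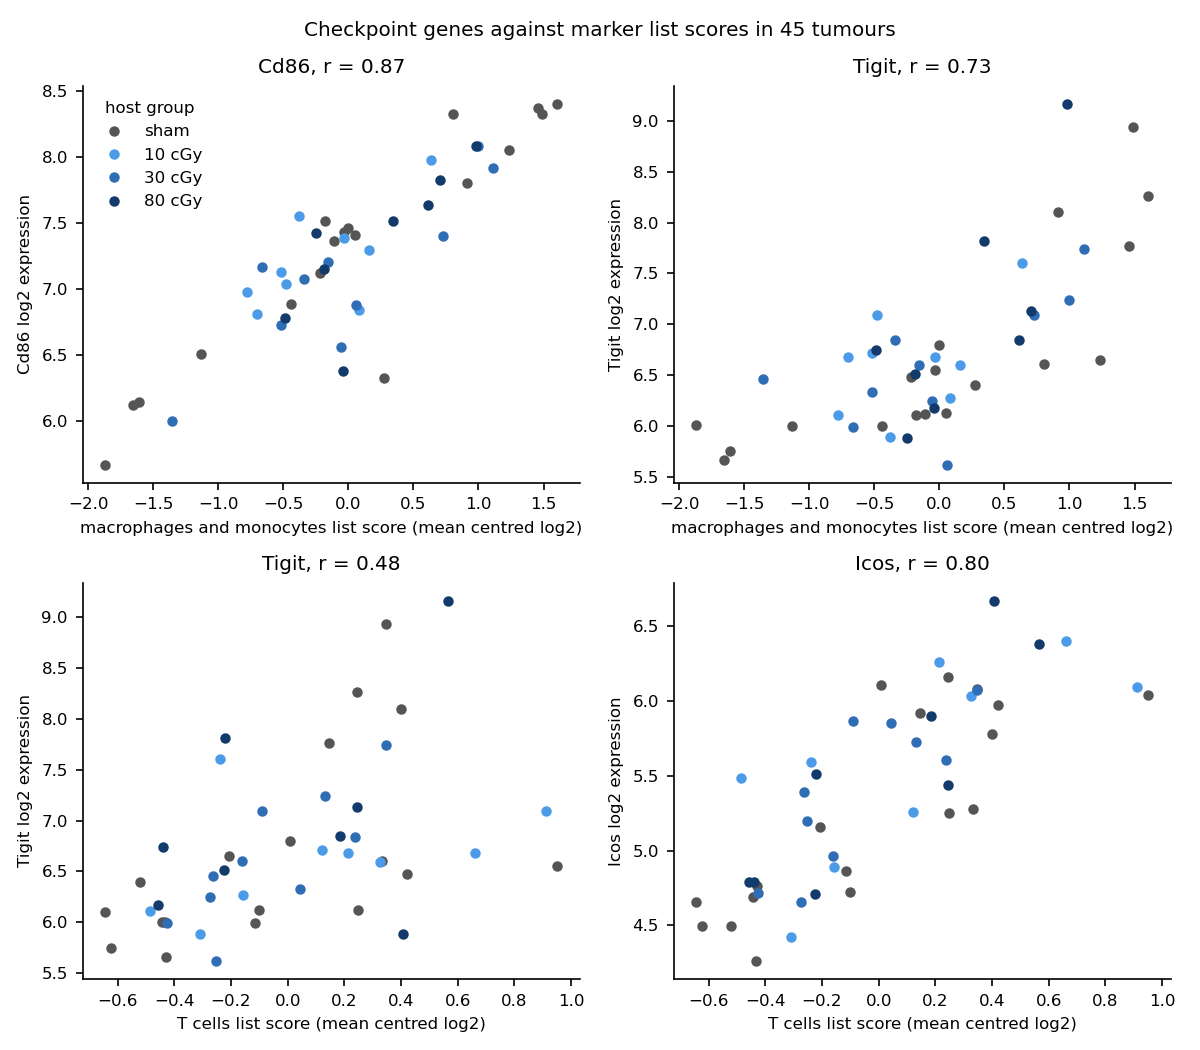
Log2 expression of Cd86 and Tigit against the macrophage and monocyte list score, and of Tigit and Icos against the T cell list score. Points are the 45 tumours, coloured by host group, and r is given above each panel: 0.87 for Cd86, 0.73 and 0.48 for Tigit, and 0.80 for Icos.

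The mammary epithelium list split the tumours, so no pooled value is given for it. In 8 tumours its score was -1.91 or lower, and in the other 37 it was -0.74 or higher. The 8 were replicates 5, 10, 13 and 16 of the sham group, replicate 1 at 10 cGy, replicate 4 at 30 cGy and replicates 3 and 8 at 80 cGy. Within the 37, the epithelial score was negatively correlated with Tigit (r = -0.61), Cd80 (r = -0.59), Cd86 (r = -0.50) and Havcr2 (r = -0.47), with adjusted p values from 0.000833 to 0.015 by permutation test. Without the 2 of these tumours farthest from the median of the checkpoint gene, r was -0.45, -0.54, -0.49 and -0.33. Within the 8, no gene passed after adjustment in an exact permutation test (lowest adjusted p, 0.1325), and the largest values were 0.74 for Havcr2 and Pdcd1 and -0.73 for Pdcd1lg2.

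The 8 tumours of low epithelial score had a median Tigit of 7.75, against 6.46 in the other 37. Their median Havcr2 was 8.35 against 7.47, Cd86 7.87 against 7.13, Cd80 7.22 against 6.34, Icos 6.06 against 5.25 and Ctla4 4.92 against 4.28. Cd274 was 7.05 against 7.11. These tumours were grouped by a measured score, so the values are a description with no test. Within the 37 tumours alone, 19 of the 45 pairs of checkpoint genes passed, 18 of them among the 25 that passed in all tumours. Of the 90 gene and list pairs, 31 passed in the 37 tumours, against 40 in all tumours. Ctla4 had r = 0.28 with the macrophage list and 0.20 with the T cell list there, and neither passed. Pdcd1 had r = 0.55 with the T cell list in the 37 tumours, which passed (adjusted p = 0.0034, permutation test). Its r with the macrophage list there was 0.35, which did not pass. Havcr2 with Cd86 then had r = 0.73, Havcr2 with Tigit 0.61, Cd86 with the macrophage list 0.83 and Icos with the T cell list 0.77.

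By the rule for naming genes, the 3 genes of highest r were listed for each checkpoint gene over the 45 tumours. For Cd86 they were the macrophage growth factor receptor Csf1r (r = 0.92), the myeloid adaptor Tyrobp (0.91) and Adgre1, which encodes F4/80 (0.91). For Havcr2 they were Bach2os (0.94), Milr1 (0.90) and Cd300c2 (0.87). For Tigit they were Podnl1 (0.83), Angptl7 (0.80) and Fmnl1 (0.80). For Cd80 they were Gpr132 (0.84), the hexokinase Hk3 (0.82) and the collagen gene Col5a3 (0.82). For Icos they were Gimap3 (0.79) and the T cell receptor subunits Cd3g (0.75) and Cd3e (0.74).

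The other 5 genes had looser neighbours. Those of Pdcd1lg2 were the fungal receptor Clec7a (0.72), Cd244a (0.72) and the kinase Fgr (0.69). Those of Ctla4 were the chemokine Cxcl12 (0.72), Abcb1b (0.66) and Mbnl1 (0.62). Those of Cd274 were Mbd2 (0.70), the interleukin receptor Il7r (0.70) and the integrin Itgal (0.68). Those of Pdcd1 were Slamf9 (0.67), Cst3 (0.65) and Dapp1 (0.63). Those of Lag3 were Prkd2 (0.65), Caskin2 (0.64) and Heyl (0.64).

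The sham group itself was not uniform. Sample codes of sham tumours start with 5 in 10 tumours and with 6 in 8, while each dose has a first digit of its own. The labels do not say what the codes mean, so dose and first digit cannot be told apart among Si tumours. Between the 2 sham sets, 0 of the 10 checkpoint genes passed the adjusted threshold, where 0.00825% of the genes that passed the filter did (1 gene) and 12.1% had an unadjusted p under 0.05. Over all 18820 genes these shares were 0.0531% and 17.1%.

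Cd86 had a lowest value of 6.51, a median of 7.79 and a highest of 8.40 in the set coded 5, and 5.67, 6.72 and 7.81 in the set coded 6. The sets overlap, with the set coded 6 lower by 0.97 ± 0.29 (SE), a limma p of 0.0015 and an adjusted p of 0.210. Havcr2 ran from 6.26 to 9.41 with a median of 7.86 in the set coded 5, and from 5.88 to 8.18 with 7.07 in the set coded 6. Its difference was -0.82 ± 0.36 (SE), with an adjusted p of 0.347. Pdcd1 ran from 4.97 to 6.29 with a median of 5.49, and from 4.66 to 5.38 with 5.07. Its difference was -0.49 ± 0.16 (SE), with an adjusted p of 0.138 over all genes.

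In all, 9 of the 10 checkpoint genes were lower in the set coded 6, all except Lag3, with a median of -0.40 against -0.02 over all genes. The macrophage list moved with them: 11 of its 11 genes were lower, with a median of -0.92, and 9 had an unadjusted p under 0.05. Its score ran from -1.13 to 1.61 in the set coded 5 and from -1.87 to 0.91 in the set coded 6. Of the T cell list, 4 of 13 genes were lower. The part of macrophage content in the Cd86 and Havcr2 values was not tested. The choice of sham set turned the sign of several Si differences: Cd86 was 0.47 higher in Si tumours against the set coded 6 alone and -0.50 against the set coded 5 alone, with 0 genes of the 10 passing either way.

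**Figure D5:**
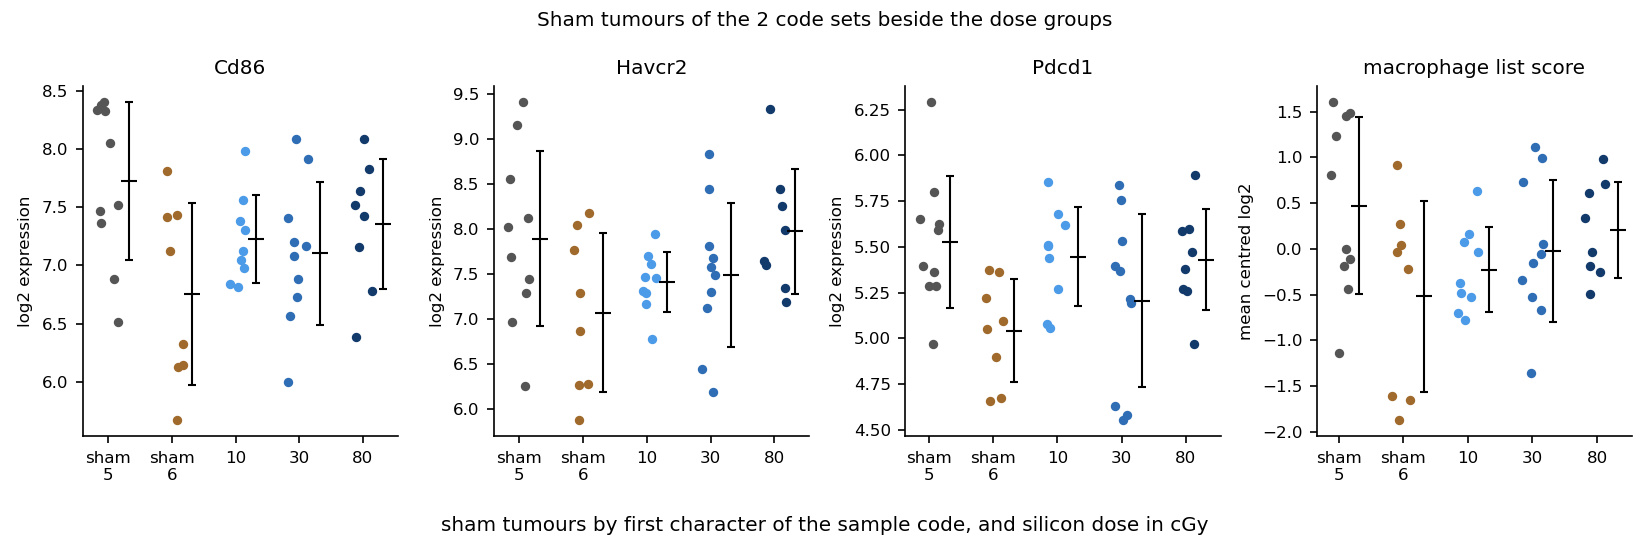
Log2 expression of Cd86, Havcr2 and Pdcd1, and the macrophage list score (vertical axes), in the 10 sham tumours coded 5, the 8 coded 6 and the 3 dose groups (horizontal axis, cGy). Points are tumours and bars the mean with 1 SD. The set coded 6 reaches lowest for Cd86, with overlap between all sets.

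Codes also share a stem (the code without its last letter) in 8 pairs, or 16 tumours, and the labels do not say whether these come from 1 host. Tumours of the same stem differed by a median of 0.38 log2 units for Cd80, against 1.00 for other pairs of the same host group. For Havcr2 the medians were 0.42 and 0.84, and for Pdcd1lg2 0.18 and 0.35. For Icos they were 0.75 and 0.70, for Pdcd1 0.41 and 0.37 and for Cd86 0.70 and 0.72, so pairs of these 3 genes were about as far apart as other pairs. These are descriptions of 8 pairs with no test.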

How the data were processed

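The 45 arrays were deposited as 1 table of log2 values per probe set; per the submitters' processing notes these came from RMA with the oligo package, with versions not given in the sources used here. RMA scales arrays to one distribution, which can remove shifts common to all genes. Of 35556 probe sets, 21218 had 1 symbol in the platform annotation, 1881 several and 12457 none, and a gene took its single-symbol probe set of highest mean. Groups came from the sample titles. Nothing in the labels says which tumours came from separate hosts. The main p-values treat the tumours as independent, which the labels cannot show. Permutations shuffled tumours without regard to shared code stems, while limma gave a consensus correlation of 0.24 within stems. The 45 tumours gave distinct profiles (highest correlation between 2 tumours, 0.978).

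Group differences came from limma 3.58.1 (lmFit and eBayes, R 4.3.3), with the 4 group means fitted together, two-sided, Benjamini-Hochberg adjusted, threshold 0.05. Correlations used two-sided permutation tests written with NumPy 2.4.6, with ranks from SciPy 1.17.1. Both steps were tested on simulated data. Depth has no meaning for arrays, and the number of tumours limits precision.

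The checkpoint genes, marker lists, motifs and tests were chosen with earlier results of these data known. Named genes were the 10 genes, the 2 co-signalling genes of smallest p on each side per comparison, the 3 genes of highest r per checkpoint gene and defining markers. Some listed markers are not reported here. Alternatives covered the filter, probe sets, scaling, array weights, variance prior, replicate and code blocks, sham sets, covariates and single tumours.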

Additional observations from a re-analysis of the deposited data

Results flagged for a closer look

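Of 30 combinations of a checkpoint gene with a dose group, 1 had a tumour standing apart by Dixon's test at the 95% level, while chance flags about 1 in 20. Cd274 at 10 cGy reached 8.16 in replicate 8, with the next tumour at 7.50, a gap of 0.56 of the range of the 9 tumours. Without that tumour, the Cd274 difference from sham at 10 cGy was 0.47. Sham tumours, 18 in number, were not tested in this way.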

How the results depend on the processing

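The count of checkpoint genes called was 0 in each of 7 limma comparisons, so the lowest and highest counts are 0 and 0. In all there were 98 alternative values and 315 values from fits that left out 1 tumour (59 settings per comparison). Apart from the fit over all genes, these values cover the 7 checkpoint genes that passed the filter. Pdcd1lg2, Pdcd1 and Ctla4 otherwise enter only through their Si differences, among the single differences below. The lowest adjusted p of any checkpoint gene among these values was 0.346, for the 4 groups with array weights. Of the 12123 genes that passed the filter, array weights called 30 at 80 cGy, 25 for the dose slope and 2 for the 4 groups. The replicate number as a block called 6 for Si and 1 at 80 cGy. Among 14 single differences, 14 of 203 alternative values changed sign, none of them called. Against sham tumours coded 5 alone, the Si difference was -0.17 for Pdcd1, -0.27 for Havcr2 and -0.17 for Tigit. Against those coded 6 alone it was -0.0595 for Lag3, 0.27 for Cd80 and 0.47 for Cd86. With array weights it was -0.0416 for Havcr2 and -0.15 for Tigit, with the B cell score as a covariate -0.0049 for Tigit and with the component of probe sets without symbols 0.0134 for Cd86. The cause was not tested.

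Replicate numbers in the titles did not pair tumours: over 52 pairs of the same number in different groups, deviations had a median correlation of -0.07, and 10 pairs exceeded 0.1. With the replicate number as a block, the Si difference was -0.19 for Pdcd1, -0.31 for Havcr2 and -0.14 for Tigit, and the 80 cGy difference of Havcr2 was -0.0176. The Cd274 Si difference was 0.12 under that block. No sample of 37 with a shared number correlated best with its own number (0 of 37).

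Leaving out 1 tumour moved the Si difference between 0.22 and 0.42 for Cd274, -0.21 and -0.09 for Pdcd1lg2, 0.01 and 0.11 for Pdcd1, 0.05 and 0.13 for Ctla4, 0.07 and 0.18 for Lag3, 0.0019 and 0.21 for Havcr2, -0.0268 and 0.21 for Tigit, 0.19 and 0.30 for Icos, -0.17 and 0.0577 for Cd80, and -0.16 and -0.0006 for Cd86. Cd80 turned positive in 2 of these fits and Tigit negative in 1.

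Correlated pairs of checkpoint genes numbered 18 to 29 over the alternatives, against 25. Gene and list pairs numbered 20 of 100 in the 18 sham tumours alone, against 48, where fewer samples enter. These 2 counts include the mammary epithelium list, and without it they were 16 and 40 of 90. In the 37 tumours outside the low epithelial cluster, 26 of the 73 called correlations were no longer called. The r of Lag3 with mammary epithelium was 0.19 in the 37 tumours. Leaving out the 8 tumours of low epithelial score, the 2 of high B cell score, code set means and filtered list scores were chosen after seeing the data.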
